A study of Mus musculus with 12 samples.

Results

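The cytosolic ribosomal protein genes are the genes whose protein products, together with ribosomal RNA, make up the ribosome that translates nuclear-encoded messages. They were taken by gene symbol, as every symbol made of Rpl or Rps and a number, with or without a closing a, x or l, together with Rplp0, Rplp1, Rplp2 and Rpsa. This gave 80 genes among 22923 symbols, of which 48 encode proteins of the large (60S) subunit and 32 proteins of the small (40S) subunit. No symbol was listed more than once. A row that joins Rpl34 with a pseudogene by a comma was left out, as were ribosomal protein genes with other kinds of names, such as Fau and Gnb2l1.

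RNA from the proximal hind limb muscle of male FVB mice aged 22 weeks was sequenced in 12 samples, 3 in each of 4 groups. Mice without αB-crystallin (Cryab) and HspB2 (Hspb2), a neighbouring pair of small heat shock protein genes (KO), were compared with littermates that carry both (WT, titled Flox), each on normal chow or on a high fat diet. KO and WT mice came from heterozygous parents, the deletion was carried in all cells, and the methods describe the samples of a genotype as independent without stating whether any RNA was pooled. The genotype label of 6 of the 12 samples conflicts with the title, and the titles were followed here.

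The targeted genes matched the titles. Cryab lay between 412 and 837 FPKM (fragments scaled by transcript length and by the size of the library) in the 6 WT samples and between 0.845 and 1.75 FPKM in the 6 KO samples, and Hspb2 between 81.5 and 103 FPKM and between 0.353 and 1.92 FPKM. Skeletal muscle was visible in every sample, with 7 of 7 muscle markers in the files and summed levels of 54288 to 104842 FPKM, although Myh4 was listed at 0 in every sample and Acta1 in 2. Lens crystallin markers summed to at most 0.187 FPKM. In 3 chow samples, WT replicate 2 and KO replicates 1 and 3, transcripts of lymphocytes stood far above the other 9. Their 5 B cell markers summed to 46.3, 51.6 and 52.7 FPKM, against at most 5.64 FPKM elsewhere, and their 5 T cell markers to 29.5, 32.4 and 31.0 FPKM, against at most 1.92 FPKM. For a number of results below, values without these 3 samples are also given.

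A ribosome holds one copy of nearly every ribosomal protein, and cells keep the supply of these proteins balanced by transcribing their genes at similar high rates and by translating the messages together. Most of these messages begin with a run of pyrimidines, the 5′ terminal oligopyrimidine (TOP) motif, through which Larp1 and the kinase mTOR switch their translation on and off with growth signals. Muscle adds a peculiarity: Rpl3l, a close relative of Rpl3 that is restricted to heart and skeletal muscle, takes the place of Rpl3 in many of its ribosomes.

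The start sites of a few genes are shown, because their messages are described below, because they carry such a run or because they lack it. Promoter entries from RefSeq (GRCm38.p6) were found for 60 of the 80 genes and gave 71 promoters. Each line holds the 10 bases before and the 20 bases from the start site, with the run or runs of C and T of at least 6 bases near the start in capitals.
Rps6 (chr4:86857348-86857377, minus strand): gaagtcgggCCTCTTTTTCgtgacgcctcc
Rpl38 (chr11:114668570-114668599, plus strand): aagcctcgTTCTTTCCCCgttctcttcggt
Rplp2 (chr7:141447641-141447670, plus strand): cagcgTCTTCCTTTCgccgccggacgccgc
Rps27 (chr3:90213629-90213658, minus strand): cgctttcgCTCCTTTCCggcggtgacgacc
Rpl15 (chr14:18270967-18270996, minus strand): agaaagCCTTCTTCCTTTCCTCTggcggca
Rps27l (chr9:66946076-66946105, plus strand): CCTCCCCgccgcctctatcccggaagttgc
Rpl3l (chr17:24727816-24727845, plus strand): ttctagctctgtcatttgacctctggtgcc
Rpl10l (chr12:66284382-66284411, minus strand): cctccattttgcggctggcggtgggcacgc
The first 5 genes encode general ribosomal proteins and have their pyrimidine run at the start, 17 bases long in Rpl15. In Rps27l the run lay before the start. In Rpl3l and Rpl10l, the muscle and testis relatives of Rpl3 and Rpl10, the longest run within 5 bases of the start was 4 bases. A run of at least 6 pyrimidines within 5 bases of the start was present in 42.3% of the 71 promoters, against 20.2% of all 32851 promoters in the table. Most of the 71 thus had no such run by this measure, so its absence does not set Rpl3l and Rpl10l apart.

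Around the start, letters of common promoter elements were also more frequent than in all promoters. From 250 bases before to 50 bases after the start and on both strands, the ETS core CCGGAAG was found in 36.6% of the 71 promoters against 8.86% of all, the YY1 core AAGATGGC in 9.86% against 2.75%, and the SP1 box GGGCGG in 57.7% against 35.7%. The 120 bases before the start of Rpl38 and of Rpl3l are set side by side, with these letters in capitals.
Rpl38 (chr11:114668460-114668579, plus strand): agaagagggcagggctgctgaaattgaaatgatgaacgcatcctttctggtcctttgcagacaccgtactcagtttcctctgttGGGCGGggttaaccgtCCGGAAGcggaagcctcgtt
Rpl3l (chr17:24727706-24727825, plus strand): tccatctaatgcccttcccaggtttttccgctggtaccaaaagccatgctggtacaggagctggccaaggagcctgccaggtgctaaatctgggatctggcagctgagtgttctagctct
Rpl38 held an SP1 box and an ETS core within this stretch, while none of the 3 motifs was found there in Rpl3l, which says only that these letters are not in this window.

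The genes lay on 19 chromosomes, with 14 on chromosome 7, and 30 of them held 58 snoRNA genes, which guide the modification of ribosomal RNA, on the same strand within their bounds (GENCODE M21, GRCm38). Their transcripts were short, with a median of 886.5 bases against 2950 bases for the genes tested. Ribosomal protein genes have many processed pseudogenes. Only 8 of the 80, Rpl10l, Rpl22, Rpl39l, Rpl3l, Rps21, Rps27l and Rps3 among them, shared no stretch of 100 bases with the transcript of another gene, and for the median gene 31.6% of such stretches were shared. Levels of the others can be split with or gained from these copies.

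The ribosomal protein messages were among the most abundant in the muscle. Of the 80 genes, 78 reached 1 FPKM in at least 3 samples and were tested together with the 11945 genes that did so. Their median level was 409 FPKM, above 98.5% of the genes tested, whose median was 7.53 FPKM. A mean of at least 100 FPKM was reached by 75 genes, which made up most of a total of 29663 to 36574 FPKM per sample, or 5.05% to 6.73% of all FPKM when Mir324, which dominates 1 KO chow sample, is set aside. The 46 tested genes of the large subunit had a median of 393 FPKM and the 32 of the small subunit a median of 452 FPKM.

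Levels nevertheless spanned a wide range. Rplp1, an acidic protein of the stalk that recruits elongation factors, was the most abundant at 1132 FPKM (1058 to 1239 over the 12 samples), followed by Rps29 at 892, Rps2 at 855, Rps27 at 828 and Rps20 at 728 FPKM. These 4 follow each other by less than the ranges of their own samples, while the lowest Rplp1 sample lay below the highest of Rps29, at 1077 FPKM. Its stalk partners Rplp2 and Rplp0 averaged 683 and 621 FPKM. At the other end stood Rps15a at 35.2 FPKM (30.6 to 37.3), Rpl22 at 74.8 FPKM (67.3 to 82.4) and Rpl3 at 94.7 FPKM (59.6 to 151), and the ranges of Rps15a and Rpl22 did not meet. Rps6, the target of S6 kinase, was at 248 FPKM, and Rpsa and Rps27a, which is made as a fusion with ubiquitin, at 301 and 291 FPKM. Across the 78 genes, Spearman's rho of mean FPKM and transcript length was −0.44, a description over genes that share libraries. The longest of the transcripts used, of 5179 bases, is that of Rps15a, which need not be the form by which its FPKM was scaled.

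**Figure D1:**
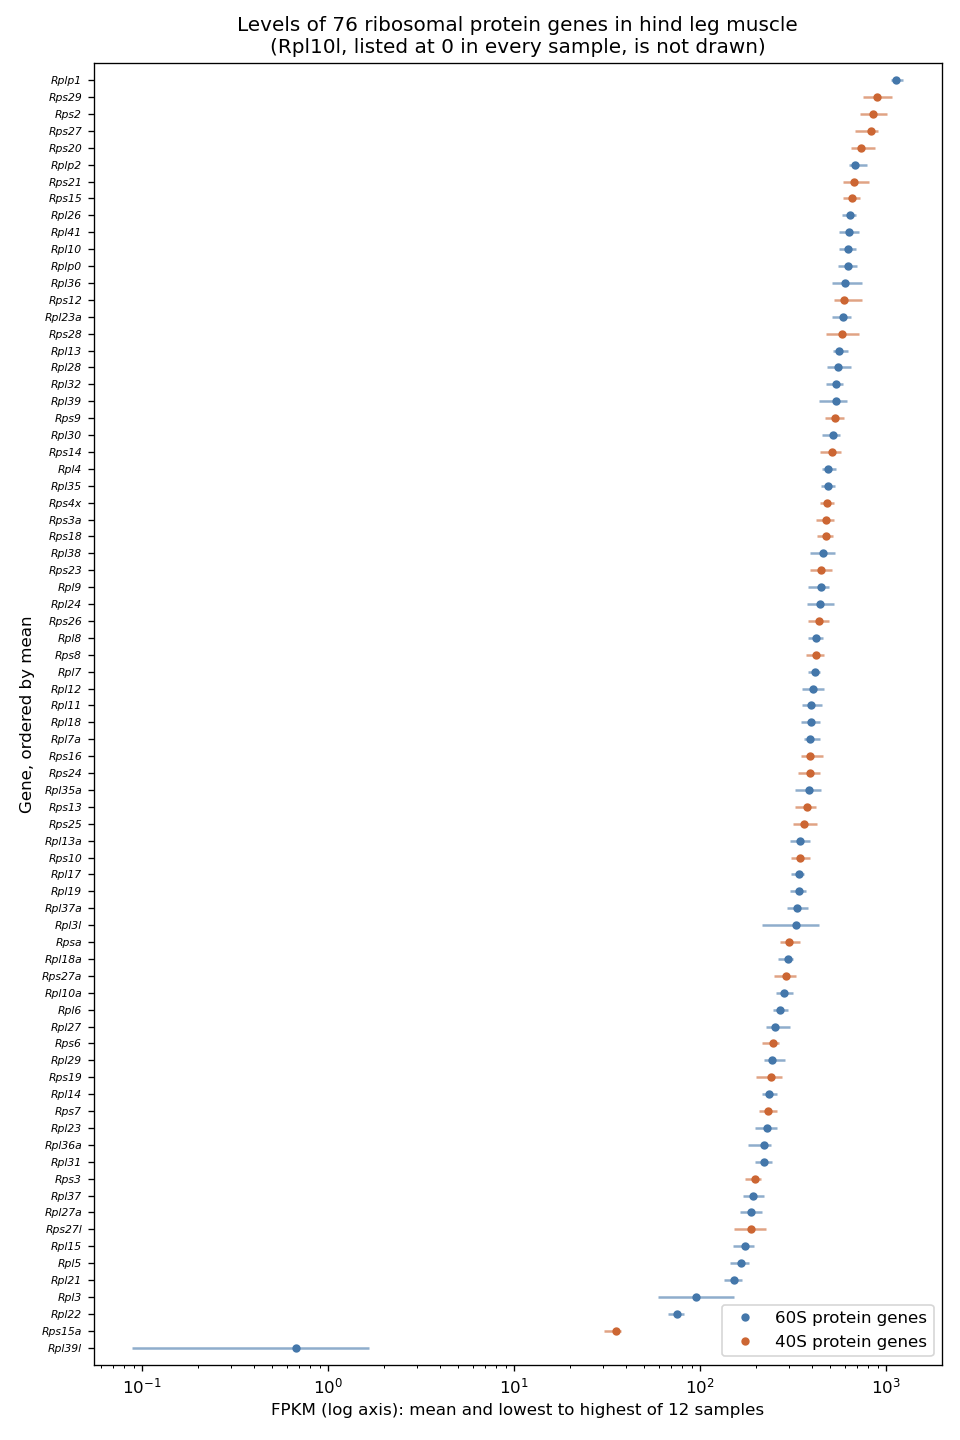
Mean FPKM of 76 ribosomal protein genes on a log axis, ordered by mean, with a line from the lowest to the highest of the 12 samples and colours for the large (60S) and small (40S) subunit. Most genes lie between 100 and 1132 FPKM with short lines, and Rpl3 and Rpl3l have the longest lines among the genes above 1 FPKM.

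Within groups the samples lay close together. The SD of log2(FPKM + 1) between samples of a group had a median of 0.096 for the 78 genes, against 0.154 for all genes tested and 0.186 for genes with a mean of at least 100 FPKM, and 76 of the 78 lay below the median of all. Over all 12 samples, 75 genes spanned less than 1.5-fold. Rpl23a and Rps27a were among the 3 with the smallest SD. Rpl3, Rpl3l and Rps19 varied most, Rps19 from 199 to 277 FPKM. As the samples are bulk tissue, fewer cells of a type and less RNA per cell cannot be told apart here or below.

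On the high fat diet the ribosomal protein genes had slightly higher values than on normal chow in both genotypes, but no single gene passed the test. In WT mice 74 of the 78 genes had a higher mean on the high fat diet, with a median log2 fold change of 0.10 (1.07-fold), where the median of all genes was −0.01. In KO mice 70 of the 78 were higher, with a median log2 fold change of 0.10, where that of all genes was 0.03. The direction was higher in both genotypes for 67 genes, or 85.9%, against 32.2% of all genes tested. Large and small subunit genes had similar counts, with 44 of 46 and 30 of 32 higher when the genotypes were averaged, and medians of 0.11 and 0.09.

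These shifts were of the size of the spread between samples, as the medians of single samples had an SD of 0.073 within groups, and they depended on how samples were scaled. The median deviation of the 78 genes from their 12-sample means was 0.02, −0.03 and −0.16 in the WT chow samples and 0.08, 0.09 and −0.04 in the WT high fat samples, and the groups overlapped. In KO mice it was −0.03, −0.08 and −0.02 on chow and 0.06, 0.14 and −0.02 on the high fat diet, where replicate 3, at −0.024, lay just above the highest chow sample, at −0.025. Genes outside the family that also had a mean of at least 100 FPKM, 629 in number, moved in the same direction. Their medians were 0.09 in WT and 0.20 in KO. Of them 68.8% were higher in WT and 91.3% in KO, against 94.9% and 89.7% of the ribosomal protein genes. Short transcripts outside the family, under 1000 bases and 634 in number, had medians of 0.08 and 0.13. Under quantile normalization the median of the ribosomal protein genes turned to −0.05 in WT and −0.07 in KO mice. With samples scaled to equal totals it was 0.01 and −0.07, when the median of all genes stood at −0.09 and −0.12, so that the ribosomal protein genes were 0.10 and 0.04 above it. Without the 3 lymphocyte-rich samples the medians were 0.11 in WT and 0.14 in KO, in which chow was then a single sample assumed to vary like the other groups. Neutrophil markers moved with diet in WT mice, with 5 of 5 markers in the files and sums of 1.96 to 25.9 FPKM on chow and 121 to 1125 FPKM on the high fat diet. In KO mice these sums were 14.4 to 122.5 FPKM on chow and 9.65 to 40.2 FPKM on the high fat diet. Erythroid markers, 3 of 5 in the files, summed to 2.48 to 4.52 and to 10.3 to 24.5 FPKM in WT and to 3.79 to 5.56 and 3.24 to 12.4 FPKM in KO, and the part of either cell type in the result was not tested.

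**Figure D2:**
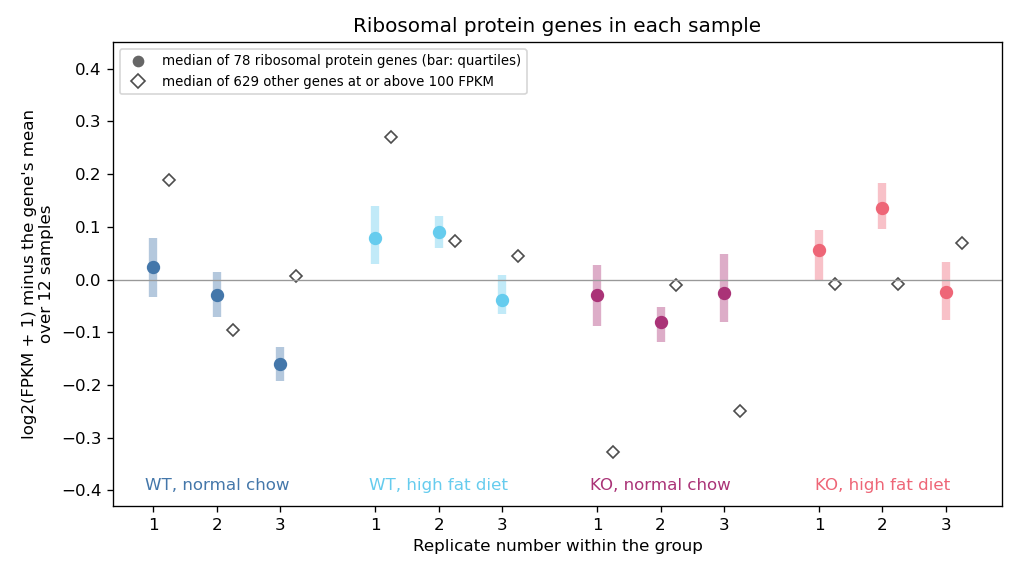
Median deviation of 78 ribosomal protein genes from their 12-sample means in log2(FPKM + 1), by sample and group, with quartile bars, beside the median of 629 other genes at or above 100 FPKM (diamonds). The ribosomal protein medians run from −0.16 to 0.14, and the other abundant genes reach −0.33 in KO chow replicate 1.

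By the test across all genes, limma with Benjamini-Hochberg adjustment, the diet call was 0 of 78 genes in WT mice, where 0.1% of all genes were called, and 0 of 78 in KO mice, where 0% of all genes were called. At an unadjusted p under 0.05, 5 genes were higher and 0 lower in WT, against 4.42% of all genes that were higher, and 5 were higher and 0 lower in KO, against 6.56%. Of all 11945 genes tested, 442 were lower at that level in WT and 565 in KO. The 3 samples of each diet did not overlap for 15 genes that were higher in WT, where this held for 6.2% of all genes, and for 0 that were lower, where it held for 6.88%. In KO mice the samples did not overlap for 25 genes that were higher, against 10.7% of all genes, and for 0 that were lower, against 6.14%. When both genotypes were averaged, 0 genes passed adjustment, against 0.0586% of all, and 16 were higher at an unadjusted p under 0.05, against 7.96%. At that level 147 of the 629 other abundant genes and 129 of the 634 other short transcripts were also higher. A count of 16 of 78 is thus not particular to the ribosomal protein genes.

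The genes with the lowest p-values for diet came from both subunits. Rpl36, of the large subunit, was at 582, 533 and 513 FPKM in WT chow samples and at 739, 672 and 619 FPKM in WT high fat samples. It was at 535, 573 and 544 FPKM in KO chow samples and at 625, 675 and 569 FPKM in KO high fat samples. Every WT high fat sample thus lay above every WT chow sample, while the KO groups overlapped. The log2 fold change of Rpl36 was 0.32 (SE 0.10, limma adjusted p = 0.35) in WT and 0.17 (SE 0.10, adjusted p = 0.50) in KO. Rps2, a protein at the entry of the messenger RNA channel, was at 843, 742 and 780 FPKM in WT on chow and 1007, 920 and 844 FPKM on the high fat diet. In KO it was at 724, 802 and 807 FPKM on chow and 904, 974 and 917 FPKM on the high fat diet. The groups did not overlap in either genotype, and averaged over genotypes the log2 fold change of Rps2 was 0.24 (SE 0.07, limma adjusted p = 0.20). Of the 100-base stretches of Rps2, 58.5% were shared with 36 other genes, so that part of its level is uncertain.

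Rpl38, whose loss in mice disturbs the patterning of the skeleton, averaged 419 ± 12.9 and 502 ± 35.2 FPKM on chow and high fat diet in WT and 427 ± 36.0 and 486 ± 46.1 FPKM in KO (SD, n = 3). Its WT groups did not overlap and its KO groups did. Rps25, known for its part in initiation at internal entry sites, was at 315, 345 and 330 FPKM in KO on chow and 392, 423 and 370 FPKM on the high fat diet. Its log2 fold change with diet was 0.26 (SE 0.09, limma adjusted p = 0.43) in KO and 0.10 (SE 0.09, adjusted p = 0.86) in WT.

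Some genes had diet differences of opposite sign in the genotypes. Rps20 was at 875, 779 and 688 FPKM in WT on chow and 679, 752 and 652 FPKM on the high fat diet. The diet difference of Rps20 was −0.16 on the log2 scale (SE 0.12, limma adjusted p = 0.79) in WT and 0.09 (SE 0.12, adjusted p = 0.74) in KO, or 0.19 (SE 0.17) in KO without the 3 lymphocyte-rich samples. Rps16 had log2 fold changes of 0.04 and −0.06 (SE 0.12 each). Rps27 had 0.13 in WT and −0.05 in KO (SE 0.12 each). For Rps6 they were 0.03 and 0.01, both above 0. None of these differences was larger than its error by more than 1.5 times, and the groups overlapped in each.

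**Figure D3:**
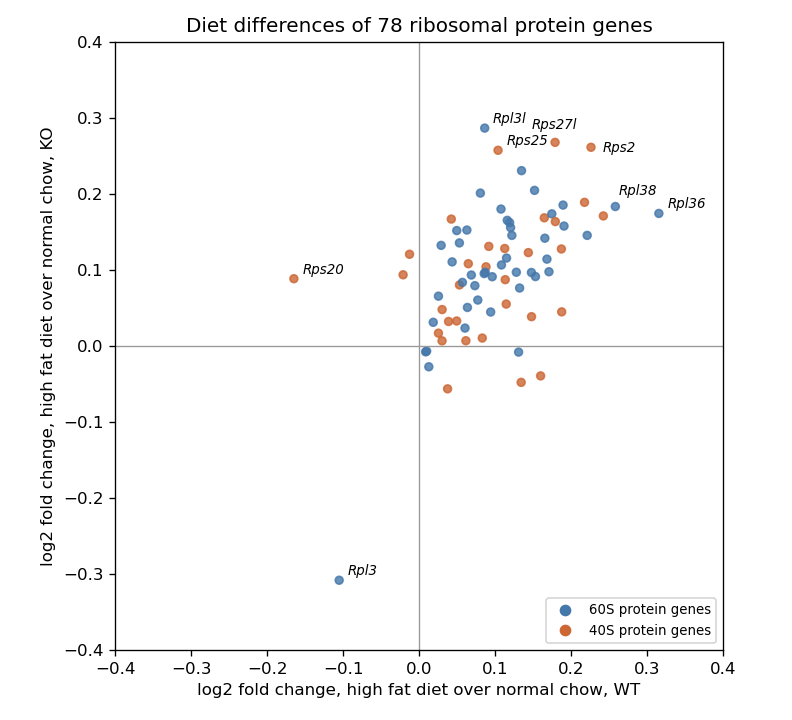
Log2 fold change of each of 78 ribosomal protein genes on the high fat diet over normal chow, in WT mice (horizontal) and KO mice (vertical), coloured by subunit. Of these, 67 lie above 0 on both axes and 1 gene, Rpl3, below 0 on both.

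KO and WT mice had nearly the same median level of these genes. The median log2 fold change of KO over WT was 0.01 on normal chow and 0.01 on the high fat diet, with 43 and 47 of the 78 genes higher in KO, and without the 3 lymphocyte-rich samples it was −0.01 on chow. The 629 other abundant genes had medians of −0.22 and −0.10 in the same comparisons, and all genes tested −0.03 and −0.01. The median again depended on the scaling: with equal totals the ribosomal protein genes had medians of 0.18 and 0.10, and under quantile normalization 0.14 and 0.13. With equal totals the median of all genes itself moved by 0.14 on chow and 0.07 on the high fat diet, and relative to it the ribosomal protein genes stood 0.07 and 0.04 higher.

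**Figure D4:**
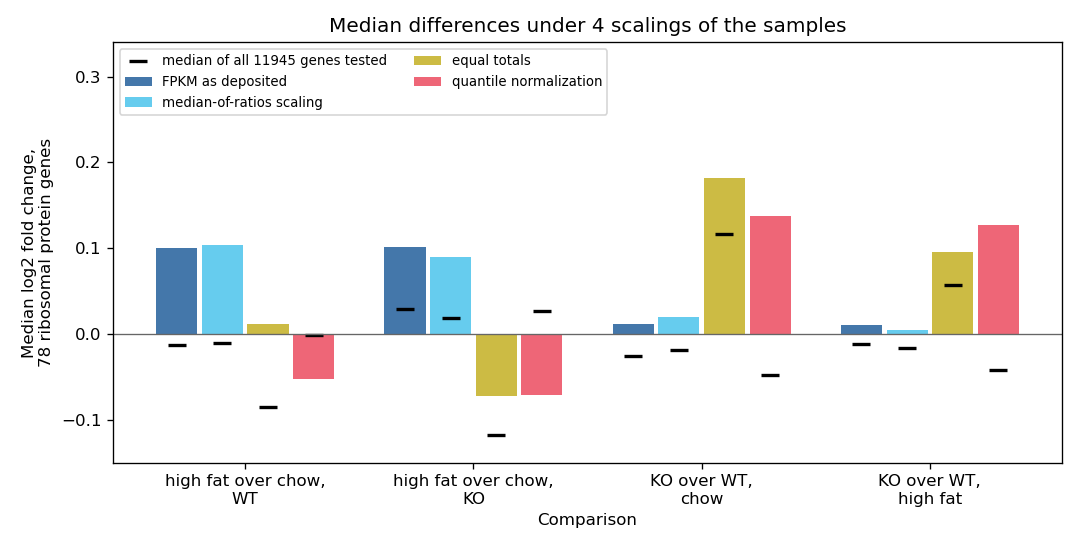
Median log2 fold change of 78 ribosomal protein genes in 4 comparisons (bars, from 0) under 4 scalings of the samples, with the median of all 11945 genes tested as a black dash. The diet medians are 0.10 for the deposited values and −0.05 and −0.07 after quantile normalization, and the genotype medians are 0.01 for the deposited values and 0.14 and 0.13 after quantile normalization.

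By limma with Benjamini-Hochberg adjustment, 0 of 78 genes differed between genotypes on chow, where 0.0586% of all genes were called, and 0 on the high fat diet, where 0.109% were called. At an unadjusted p under 0.05, there were 2 on chow, against 16.7% of all genes, and 0 on the high fat diet, against 16.2%. The chow samples of KO and WT did not overlap for 1 gene that was higher in KO, against 8.15% of all genes, and for 0 that were lower, against 10.2%. On the high fat diet they did not overlap for 1 gene that was higher, Rpl3, against 13% of all genes, and for 2 that were lower, Rpl26 and Rps24, against 10.7%. Rpl26 and Rps24, named after their values were seen, had log2 fold changes of −0.10 (SE 0.09) and −0.09 (SE 0.10) there. Averaged over diets, 0 genes were called, against 0.862% of all, and 2 had an unadjusted p under 0.05, against 26.5%. Both on chow and in the average, those 2 genes were Rpl3 and Rpl3l.

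Apart from that pair the largest genotype differences were small. Rpsa, the laminin receptor precursor of the small subunit, was at 285, 301 and 268 FPKM in WT and 337, 345 and 296 FPKM in KO, both on high fat food. It differed by 0.19 on the log2 scale (SE 0.09, limma adjusted p = 0.33), and the groups overlapped by a single KO sample. Rps12 had an averaged log2 fold change of 0.14 (SE 0.08, limma adjusted p = 0.25) and Rpl24, which bridges the subunits, one of −0.15 (SE 0.08, adjusted p = 0.25). Rps19, the gene most often mutated in Diamond-Blackfan anaemia, had log2 fold changes of 0.20 (SE 0.12) on chow and near 0 on the high fat diet. Without the 3 lymphocyte-rich samples the chow value was 0.08 (SE 0.16).

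The diet difference was not shown to depend on genotype for any of these genes. The interaction had a median of −0.004 over the 78 genes, with 36 above and 42 below 0. By limma 0 were called, against 0% of all genes, and 0 had an unadjusted p under 0.05, against 6.25% of all. The lowest adjusted p was 0.89, for Rps20, with an interaction of 0.25 (SE 0.17).

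Rpl3 and Rpl3l were the 2 members of the family that varied beyond the rest, and they did so in opposite directions. They encode related forms of a large subunit protein that reaches close to the site of peptide bond formation. Rpl3 lies at chr15:80077791-80091868 on the minus strand and Rpl3l at chr17:24727820-24736143 on the plus strand, 5890 bases after the end of Rps2 (GRCm38). Their longest identical stretch of transcript was 22 bases, so that reads of one are unlikely to be counted for the other. Of the 100-base stretches of Rpl3, however, 79.4% were shared with 7 other genes, and of Rpl3l 0%.

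Rpl3l was the major form in every sample. In WT mice Rpl3 was at 59.6, 107 and 69.8 FPKM on chow and at 61.8, 70.5 and 82.1 FPKM on the high fat diet. In KO mice Rpl3 was at 147, 84.6 and 151 FPKM on chow and at 89.7, 126 and 87.0 FPKM on the high fat diet. Each KO high fat sample lay above each WT high fat sample, while the chow groups overlapped, as KO replicate 2 was lower than WT replicate 2. Rpl3l was at 409, 312 and 346 FPKM in WT on chow and at 437, 368 and 328 FPKM on the high fat diet. In KO it was at 240, 333 and 215 FPKM on chow and at 302, 300 and 345 FPKM on the high fat diet. The KO and WT groups overlapped on both diets for Rpl3l. The sum of the pair stayed between 366 and 499 FPKM, and the share of Rpl3 in it was 18.4% ± 6.6 in WT on chow, 16.2% ± 3.8 in WT on the high fat diet, 33.2% ± 11.3 in KO on chow and 24.2% ± 4.9 in KO on the high fat diet (SD, n = 3).

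Averaged over diets, the log2 fold change of KO over WT was 0.58 for Rpl3 (SE 0.19, 1.5-fold, limma adjusted p = 0.096) and −0.35 for Rpl3l (SE 0.12, 0.78-fold, adjusted p = 0.11), so that neither passed adjustment over all genes. On chow alone the values were 0.68 (SE 0.26) and −0.45 (SE 0.17), with limma adjusted p = 0.28 for each. On the high fat diet they were 0.48 (SE 0.26) and −0.25 (SE 0.17), with adjusted p = 0.39 and 0.51. Without KO chow replicate 2, KO chow held only replicates 1 and 3, both rich in lymphocyte transcripts. In that setting 1208 of the 11945 genes tested were called for genotype averaged over diets, against 103 with all samples. Both averaged differences were among them, with limma adjusted p = 0.036 for Rpl3 and 0.037 for Rpl3l. Without the 3 chow samples rich in lymphocyte transcripts they were 0.43 (limma adjusted p = 0.38) and −0.21 (adjusted p = 0.49), and on chow alone 0.39 (SE 0.25) and −0.17 (SE 0.20), with a single KO sample left. The diet differences of Rpl3, −0.11 in WT and −0.31 in KO (SE 0.26 each), turned to 0.14 (SE 0.19) and 0.23 (SE 0.24) without these samples. Adipocyte markers also moved with the groups, with 5 of 5 in the files and sums of 1962 to 4266 FPKM in KO on chow, 1654 to 2078 FPKM in KO on the high fat diet and 583 to 2051 FPKM in the WT samples. The KO chow samples with the highest Rpl3, replicates 1 and 3, had the highest of these sums, 4266 and 3863 FPKM. Macrophage markers, 5 of 6 in the files and none of them at 0 throughout, separated the genotypes, with sums of 50.02 to 68.4 FPKM in KO on chow and 51.3 to 95.4 FPKM in KO on the high fat diet, against 32.0 to 44.5 and 10.9 to 30.1 FPKM in WT. The highest of these sums was in KO high fat replicate 2, which also had the highest Rpl3 on that diet. The part of either cell type in the result was not tested.

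The ratio of Rpl3l to Rpl3 within a sample does not depend on the single factor by which that sample is scaled. Its log2 value averaged 2.19 ± 0.62 in WT on chow, 2.38 ± 0.41 in WT on the high fat diet, 1.06 ± 0.79 in KO on chow and 1.65 ± 0.37 in KO on the high fat diet (SD, n = 3). Averaged over diets it was lower in KO by −0.93 on the log2 scale (0.52-fold), with a two-sided exact permutation p = 0.025, which became 0.15 after Benjamini-Hochberg adjustment over the 6 comparisons of the ratio. Without the 3 lymphocyte-rich samples the genotype difference was −0.65. The diet difference was 0.39, with an exact permutation p = 0.235, adjusted 0.35, and it turned to −0.23 without the 3 lymphocyte-rich samples. Single comparisons of 3 against 3 samples cannot give a p below 0.1, and the genotype difference on the high fat diet, −0.73, reached that smallest exact p.

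Across the 12 samples the pair was inversely related, the only relation between genes over samples that was computed. Pearson's r of the log2 values was −0.94 and Spearman's rho −0.95, each with a permutation p = 1e-05, the smallest that 100000 permutations can give. Without the 2 samples farthest from the median of Rpl3, KO chow replicates 1 and 3, r was −0.87 (permutation p = 0.0011). Within groups, as deviations from the group means, r was −0.88 (exact permutation p = 0.00077), so that the relation did not rest on the difference between groups. Without the 3 samples rich in lymphocyte transcripts r was −0.86 (exact permutation p = 0.00059). Rpl3l was highest in WT high fat replicate 1 and WT chow replicate 1, at 437 and 409 FPKM. The 629 other abundant genes also had their highest median deviations there, 0.27 and 0.19. In KO chow replicates 1 and 3, Rpl3l was lowest, at 240 and 215 FPKM, as were those medians, −0.33 and −0.25. The part of this shift in the relation was not tested.

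**Figure D5:**
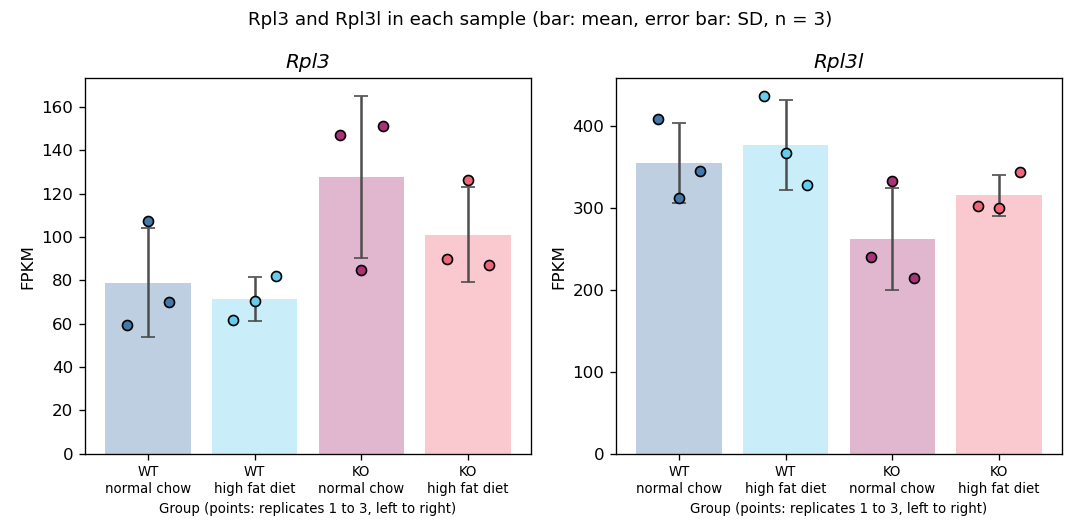
FPKM of Rpl3 (left) and Rpl3l (right) in each of the 12 samples (points), with the group mean (bar) and SD (error bar, n = 3). Rpl3 reaches 147 and 151 FPKM in KO chow replicates 1 and 3, in which Rpl3l is at its lowest, 240 and 215 FPKM.

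For the other paralogs the levels were as follows, and no relation within a pair was tested. Rpl10l, the testis form of Rpl10, was listed at 0 in all 12 samples, while Rpl10 averaged 627 FPKM (556 to 686). Rpl39l, the testis form of Rpl39, lay between 0.0884 and 1.66 FPKM and did not pass the filter, while Rpl39 averaged 537 FPKM (436 to 615). The p53 target Rps27l averaged 187 FPKM (153 to 225) against 828 FPKM for Rps27, of whose 100-base stretches 98.4% were shared with 2 other genes. Rps27l had diet log2 fold changes of 0.18 (SE 0.10, limma adjusted p = 0.72) in WT and 0.27 (SE 0.10, adjusted p = 0.43) in KO, and its KO samples, 153, 178 and 165 FPKM on chow and 194, 199 and 204 FPKM on the high fat diet, did not overlap. The KO value of Rps27l was 0.16 (SE 0.13) without the 3 lymphocyte-rich samples. Rps4x, the X-linked form of Rps4, was at 479 FPKM (440 to 527), with diet log2 fold changes of 0.03 and 0.02.

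Genes that build, control or work with the ribosome were also examined in 4 lists, and in none of the 7 comparisons was any of them called. Of 42 ribosome biogenesis genes, all tested, 24 were higher and 18 lower on the high fat diet averaged over genotypes, with a median log2 fold change of 0.02 that was −0.01 without the 3 lymphocyte-rich samples, and 15 were higher and 27 lower in KO, with a median of −0.03. The pseudouridine synthase Dkc1 had the lowest p for genotype, at −0.20 (SE 0.09, limma adjusted p = 0.18), and Heatr1 the lowest for diet, at −0.19 (SE 0.08, adjusted p = 0.33). Of 19 genes of mTOR and TOP control, 18 were tested, and 13 were lower in KO, with a median of −0.09, against 11 and −0.03 without those samples. The mTOR subunit Mlst8 came closest to the threshold, at 7.62 ± 0.33 and 8.10 ± 0.78 FPKM in WT on chow and high fat diet and 6.38 ± 0.61 and 6.78 ± 0.40 FPKM in KO (SD, n = 3). Its averaged log2 fold change was −0.23 (SE 0.06, limma adjusted p = 0.073), or −0.18 without the 3 lymphocyte-rich samples. The transcription factor Myc, at low levels, had 0.42 (SE 0.15, adjusted p = 0.12), or 0.35 without those samples.

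Of 36 initiation and elongation factors, 31 were higher on the high fat diet in KO mice, with a median of 0.12. In WT mice 17 of them were higher, with a median of −0.01. The 629 other abundant genes also differed in this way, with 574 higher in KO (median 0.20) and 433 in WT (median 0.09). On chow 29 of the 36 were lower in KO, with a median of −0.15, as were 531 of the 629 other abundant genes, with a median of −0.22. Without the 3 lymphocyte-rich samples, 22 factors were higher on the high fat diet in KO mice, with a median of 0.02, and 29 were lower in KO on chow, with a median of −0.06. The start-site selection factor Eif1 averaged 762 ± 143 and 771 ± 48.2 FPKM in WT on chow and high fat diet and 565 ± 105 and 632 ± 22.2 FPKM in KO. Its averaged genotype log2 fold change was −0.36 (SE 0.11, limma adjusted p = 0.085), or −0.27 without the 3 lymphocyte-rich samples. The poly(A)-binding protein gene Pabpc1, itself a TOP message, had 0.34 (SE 0.10, adjusted p = 0.086), or 0.22 (SE 0.08, adjusted p = 0.39) without these samples. Of 14 ribosomal protein genes with other names and further TOP genes, 13 were tested and 12 were higher on the high fat diet, with a median of 0.08. Among them Rpl36al, a copy of Rpl36a, had a diet log2 fold change of 0.24 (SE 0.06, limma adjusted p = 0.19). Fau and Gnb2l1 had −0.003 and 0.03, and all of these values hold for the deposited scale, on which the abundant genes as a whole were also higher.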

How the data were processed

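The authors sequenced total RNA from proximal hind limb muscle as paired-end reads and deposited FPKM values per gene symbol in 1 table for each sample. The submitters' processing notes name TopHat2 2.0.8b, Cuffdiff 2.1.1 and the mm10 build. Whole reads could not be recovered, so the absolute depth is unknown, and only relative depth, up to 1.36-fold between samples, was read from the steps of low values. Size factors of the deposited values lay between 0.998 and 1.01. Symbols listed more than once kept the row with the highest mean.

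The 11945 genes that reached 1 FPKM in 3 or more samples were tested on log2(FPKM + 1), which understates changes of low genes, with limma 3.58.1 in R 4.3.3. The fit used 4 group means, an intensity trend and Benjamini-Hochberg adjustment over all genes, with a threshold of 0.05. Contrasts were diet in each genotype, genotype on each diet, the interaction and both averages. Where separate animals are not documented, p-values measure the spread between these samples. On simulated data for diet in WT, 62 of 67 genes shifted by 1 on the log2 scale were called and 30 of 67 shifted by 0.5. The simulated noise was independent between genes, without shifts shared by a sample, and low genes were not shifted. These counts therefore need not hold for the data. Shifts as small as the median diet differences were not simulated. Ratios were compared by exact permutation in SciPy 1.17.1, two-sided, with groups kept within a diet or genotype where averaged, and correlations used 100000 permutations or all of them. Alternatives were the pseudocount (0.1), no filter, a replicate block, only the 2 groups compared, robust moderation, 3 scalings, grouping by the genotype label, the joined Rpl34 row added, and leaving out each sample. Leaving out the 3 lymphocyte-rich samples was added after seeing the data. Same-numbered samples did not deviate together in every pair, so the numbers were not taken as pairs.

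The members and lists were chosen with earlier results of these data known. Genes were named by rule: the 3 lowest p-values in each direction per comparison, the paralogs and their general forms, the 5 highest and lowest means, the 3 largest and smallest SDs, Rplp0, Rplp1, Rplp2, Rpsa, Rps27a and Rps6 for their role, and in each further list the 2 lowest p-values. The genes that carry each comparison are given, and the start sequences were picked for illustration. Single values of a few genes are not reported here. Sequences are RefSeq's for GRCm38.p6, and positions GENCODE M21's.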

Additional observations from a re-analysis of the deposited data

How the results depend on the processing

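Of the results recomputed under each alternative, the count of ribosomal protein genes past the threshold was 0 in every comparison and setting, except that it reached 2 (Rpl3 and Rpl3l) for genotype averaged over diets without KO chow replicate 2. In that comparison and setting 1208 of all 11945 genes tested were called, against 103 with all samples. Scaling moved the medians. With equal totals they were 0.012 for diet in WT, −0.072 for diet in KO, 0.18 for genotype on chow, 0.10 for genotype on the high fat diet, −0.090 for the interaction, 0.14 for genotype averaged and −0.030 for diet averaged. With quantile normalization they were −0.052, −0.072, 0.14, 0.13, 0.13 and −0.061, leaving out the interaction. The cause was not tested. Where the genotype label and the title conflicted, the Cryab and Hspb2 levels matched the title. With samples grouped by the label all the same, the median for genotype on the high fat diet was −0.069. Averaged genotype differences then turned to −0.13 for Rpsa, −0.10 for Rps12, 0.013 for Rpl24, −0.11 for Rpl3 and 0.071 for Rpl3l. On the high fat diet those of Rpl3 and Rpl3l turned to −0.51 and 0.28, and the averaged diet differences of Rps20 and Rps16 to 0.025 and 0.0059. Without the 3 lymphocyte-rich samples the averaged diet differences of Rps20 and Rps16 were 0.013 and 0.096 and the diet difference of the log2 ratio of Rpl3l to Rpl3 was −0.23, against 0.39 with them.

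When each sample was left out in turn, medians ranged from 0.05 to 0.15 for diet in WT, 0.07 to 0.14 for diet in KO, −0.05 to 0.05 for genotype on chow, −0.03 to 0.05 for genotype on the high fat diet, −0.05 to 0.05 for the interaction, −0.02 to 0.03 for genotype averaged and 0.08 to 0.12 for diet averaged. The averaged diet difference of Rps20 ranged from −0.082 to 0.0051 and that of Rps16 from −0.065 to 0.029, and the averaged genotype differences from 0.49 to 0.72 for Rpl3 and −0.44 to −0.29 for Rpl3l. The ratio ranged from −1.16 to −0.79 for genotype and 0.23 to 0.62 for diet. With the replicate number as a block the count of calls stayed at 0 in all 7 comparisons, and Rpl3 and Rpl3l had limma adjusted p-values of 0.15 and 0.17. Correlations of same-numbered samples ran from −0.81 to 0.39, so that this block is not a pairing by design. Depth is unknown, so no counting error can be given for low genes such as Rpl39l.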

Other observations

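The elongation factor pair Eef1a1 and Eef1a2, of which the second is the form of mature muscle and nerve, was looked at after its values had been seen. Eef1a1 was at 343, 624 and 395 FPKM in WT on chow, 343, 378 and 471 FPKM in WT on the high fat diet, 823, 439 and 812 FPKM in KO on chow and 513, 683 and 517 FPKM in KO on the high fat diet. Its averaged genotype log2 fold change was 0.56 (SE 0.19, limma adjusted p = 0.11), and 0.39 (SE 0.15, adjusted p = 0.39) without the 3 lymphocyte-rich chow samples, of which 823, 812 and 624 FPKM are the values. Eef1a2 was lowest in KO chow replicates 1 and 3, at 692 and 703 FPKM, the samples in which Eef1a1 was highest, and its averaged genotype log2 fold change was −0.14 (SE 0.13, adjusted p = 0.48), or 0.001 without those samples.

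The row that joins Rpl34 with its pseudogene lay between 446 and 570 FPKM, with an averaged diet log2 fold change of 0.14 (SE 0.06, limma adjusted p = 0.36). Rows named for processed pseudogenes were low, with Rpl31-ps12 at a mean of 5.97 FPKM and Rps15a-ps4 at 0.404 FPKM.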
